A study of Mus musculus with 15 samples.

Results

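MicroRNA (miRNA) gene loci were examined in maps of 5hmC and of unmodified CGs (uCGs) from E14TG2a cells, a line of mouse embryonic stem cells (mESCs). A locus was the span of an autosomal gene that GENCODE M21 annotates as miRNA, extended by 500 bp on both sides in mm10. Of the 51229 autosomal genes, 2054 were such loci. They comprised 1215 intragenic loci, which lie wholly inside a protein-coding gene, and 839 intergenic loci. Among the intragenic loci, 921 were on the strand of their host gene, 294 were on the opposite strand, and 270 overlapped an exon of a coding transcript. The windows held 37182 CGs, with a median of 13 CGs per locus and a range from 0 to 155. Because 333 of the genes overlapped others within 81 merged windows, neighboring members shared CGs and reads. In all, 963 members carried a name that starts with Gm.

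All 15 libraries were made from genomic DNA of this single line, grown on gelatin with LIF and serum. In hmTOP-seq, the enzyme BGT places an azide-bearing glucose on 5hmC, an oligonucleotide is tethered to it, and DNA synthesis is primed at the labeled site. For inputs of 500, 50 and 5 ng DNA there were 2 technical replicates, and 2 controls per input went through the procedure without BGT. In uTOP-seq, unmodified CGs are labeled instead, and 3 libraries were made from 300 ng. Libraries of the labeled DNA held 14713053 to 32159559 reads on autosomal CGs, and controls held 3386 to 9946. In the windows of the miRNA loci, the 6 controls together held 50 reads, against 74767 and 71457 reads in the replicates at 500 ng. All replicates came from the same cell line, so p-values measure only the spread between libraries. Whether the uTOP-seq libraries are technical replicates is not stated in the sources used here. Coverage counts reads and gives no percentage of modified molecules, and a mark on few cells cannot be told apart from a weak mark on all of them. The paper names aneuploidy and copy number variation among the confounders of hmTOP-seq, and coverage was not corrected for copy number here. Expression was not measured.

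As background, miRNA genes are transcribed as primary transcripts that are cleaved to a hairpin and then to short mature RNAs, which pair with messenger RNAs mainly through the seed near their 5′ end. Many hairpins lie in introns and are released from the host transcript, while others have promoters of their own. The Mir290 to Mir295 and Mir302 clusters are known as the miRNA genes characteristic of mouse pluripotent cells, and their products promote the fast cell cycle of these cells. 5hmC is made from 5mC by the TET enzymes and is known to mark gene bodies and distal regulatory regions, whereas CG-rich active promoters are mostly unmodified.

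The Mir290 to Mir295 cluster and the Mir302 cluster encode mature RNAs with a common seed, shown here because their genes differed in both maps. Sequences are the RefSeq entries (GRCm38.p6), 5′ to 3′, with the seed (bases 2 to 8) in capitals. The seed AAGUGCU was shared by 5 printed members of the clusters.
miR-291a-3p: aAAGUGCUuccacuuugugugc
miR-294-3p: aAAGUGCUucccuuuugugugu
miR-295-3p: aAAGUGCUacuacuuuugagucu
miR-302b-3p: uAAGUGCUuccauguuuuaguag
miR-302d-3p: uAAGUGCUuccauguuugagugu
Seeds that contain the same letters in part are those of miR-290a-3p, miR-291b-3p and miR-302c-3p. Mir367 closes the Mir302 cluster with a different seed, AUUGCAC, which it shares with miR-25-3p of the Mir106b to Mir25 cluster. The 3′ product of Mir293 is shown because its seed contains a CG.
miR-290a-3p: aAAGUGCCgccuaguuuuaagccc
miR-291b-3p: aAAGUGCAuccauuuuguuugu
miR-302c-3p: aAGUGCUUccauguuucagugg
miR-367-3p: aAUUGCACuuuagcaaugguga
miR-25-3p: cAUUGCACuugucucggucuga
miR-293-3p: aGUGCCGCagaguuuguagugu

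The Mir290 to Mir295 cluster was poor in 5hmC and among the loci richest in uCGs. Its 9 genes lie at chr7:3218626-3220841, of which Mir290a and Mir290b are intergenic and the other 7 lie inside Nlrp12, a gene of the NLR family, overlapping exons of its transcripts. Only Mir292b is on the strand of Nlrp12. Relative coverage, defined as reads per CG of a set of windows divided by reads per CG over all 20383623 autosomal CGs of the same library, was 0.244 and 0.323 for 5hmC in the 500-ng replicates. For uCG it was 4.38, 4.97 and 3.85 in the 3 libraries. The cluster thus lay below the autosomal level in both 5hmC libraries and well above it in all uCG libraries.

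In CG terms, 1 of the 70 CGs of the Mir290 to Mir295 cluster was a 5hmCG, a CG with a read in both replicates, which is 1.43%, against 23.4% of all autosomal CGs. In the uCG map, 49 of the 70 CGs had a read in all 3 libraries, which is 70.0%, against 14.6% of all autosomal CGs. The pair of CGs with the most uCG reads, of which the former lies just before the hairpin of Mir291b and the latter inside it, is shown with the CG in capitals on the plus strand of GRCm38.p6.
chr7:3219411-3219440: gttcataaaggagcCGggatcccacatggg
chr7:3219511-3219540: tctccgcggcttggCGggaaagtgcatcca
The former had 18, 28 and 7 uCG reads and 0 and 1 5hmC reads at 500 ng. The latter, whose right end holds the start of the 3′ product of Mir291b, had 18, 13 and 10 uCG reads and no 5hmC read. Outside the miRNA windows, Nlrp12 itself had a relative 5hmC coverage of 1.70 ± 0.0367 (SD, n = 2) and a relative uCG coverage of 1.22 ± 0.127 (SD, n = 3).

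Single windows of the Mir290 to Mir295 cluster ranged in 5hmC from 0.159 ± 0.111 at Mir294 and Mir295 to 0.365 ± 0.0783 at Mir292 and Mir292b (SD, n = 2). Their uCG coverage ranged from 3.15 ± 1.17 at Mir294 and Mir295 to 4.76 ± 0.420 at Mir292 and Mir292b (SD, n = 3). These pairs have identical values because their windows hold the same CGs, and the same holds for Mir290a and Mir290b at 0.219 for 5hmC and 4.597 for uCG. The values of Mir291a, Mir291b and Mir293 lay between these ends, at 0.289, 0.341 and 0.241 for 5hmC. In either mark, no neighbors in the order of levels differed by more than the larger of their SDs, while the ends of the order differed by more than that in both marks.

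The Mir302 cluster carried both marks, at its opposite ends. Its 5 genes, Mir302b, Mir302c, Mir302a, Mir302d and Mir367, lie at chr3:127545228-127545807 inside Larp7, a gene for a La-related RNA-binding protein, on the strand opposite to it and outside its coding-transcript exons. Relative 5hmC coverage of its 26 CGs was 1.29 and 2.09 in the 500-ng replicates, and relative uCG coverage was 1.26, 2.55 and 2.14. The replicates lay well apart in both maps, so that the levels are known only roughly. In total, 8 of the 26 CGs were 5hmCGs and 9 had uCG reads in all 3 libraries.

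Upstream of Mir302b, 8 CGs held 5 and 14 5hmC reads at 500 ng, and 31, 54 and 40 uCG reads. Downstream of Mir367, 15 CGs held 46 and 68 5hmC reads, and 8, 12 and 7 uCG reads. In relative terms the upstream CGs had 0.763 ± 0.519 for 5hmC and 4.67 ± 1.67 for uCG, and the downstream CGs had 2.43 ± 0.695 and 0.529 ± 0.170 (SD, n = 2 and 3). In each mark, no library of the richer end fell to the level of the poorer end. The 3 CGs between these ends lie inside Mir302b, Mir302a and Mir367 and held 2 5hmC reads in each replicate. The CGs with the most reads of each mark are shown on the plus strand of GRCm38.p6, which is the strand of the miRNA genes, with the CG in capitals. The former pair, upstream, led in uCG reads, and the latter pair, downstream, in 5hmC reads.
chr3:127545085-127545114: cgtctttcaccctcCGaggacagaacagga
chr3:127545153-127545182: cttatgtctgtaacCGggtcactttacttt
chr3:127546069-127546098: ggaagctgcttggcCGacgccatccttctg
chr3:127546132-127546161: gcagtcttcgtcctCGgcgctgcacctctc
The upstream CGs had 9, 20 and 7, and 5, 5 and 11 uCG reads. The downstream CGs had 15 and 14, and 14 and 12 5hmC reads, and the last of them had no uCG read in any library. Elsewhere in Larp7, outside the miRNA windows, relative coverage was 0.862 ± 0.0232 for 5hmC and 1.72 ± 0.0938 for uCG (SD, n = 2 and 3).

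**Figure D1:**
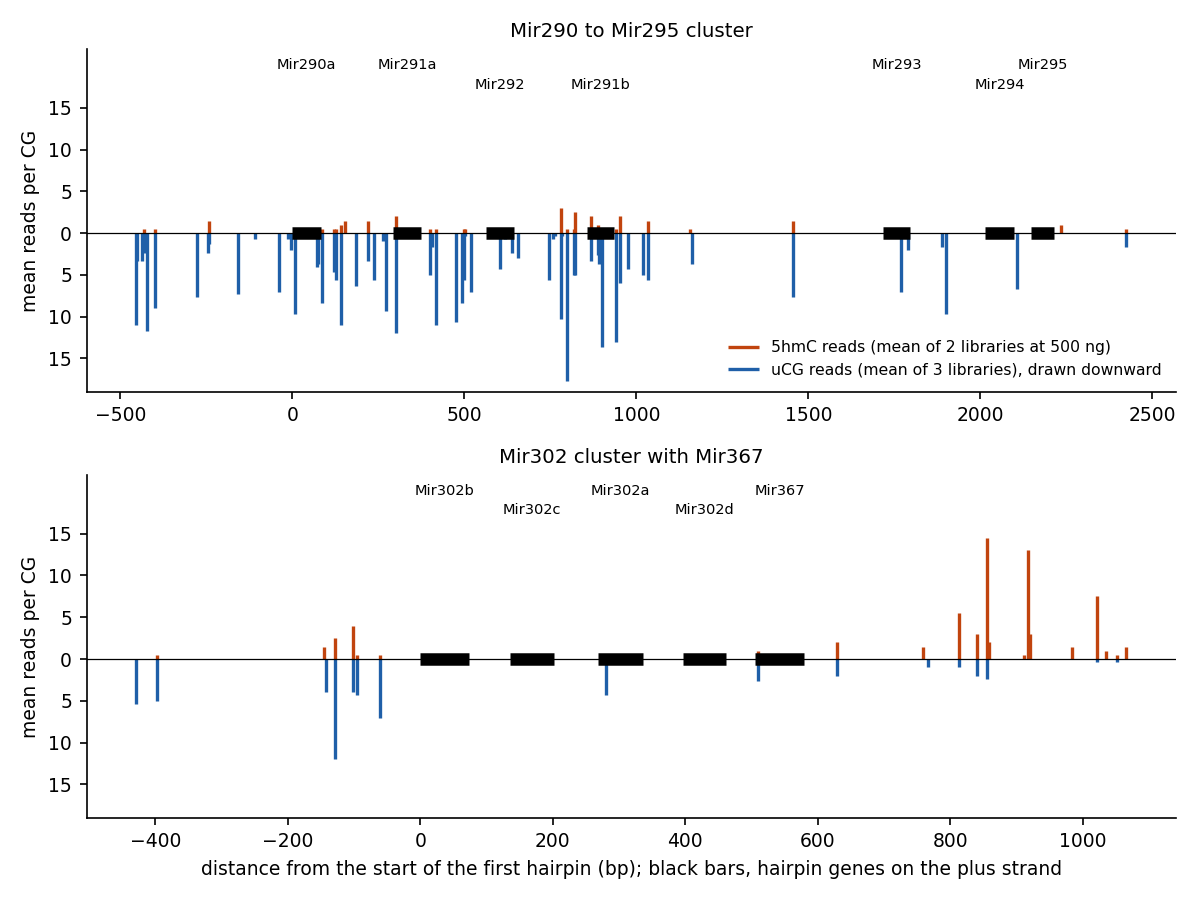
Mean reads per CG in the Mir290 to Mir295 cluster (upper panel, 70 CGs) and the Mir302 cluster (lower panel, 26 CGs) against the distance in bp from the start of the first hairpin; 5hmC reads (mean of 2 libraries at 500 ng) are drawn upward, uCG reads (mean of 3 libraries) downward, and black bars are the hairpin genes on the plus strand. The upper panel is nearly all uCG reads, whereas in the lower panel uCG reads stand upstream of Mir302b and 5hmC reads downstream of Mir367.

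To ask which loci had more reads of one mark relative to the other, reads per locus at 500 ng were compared with those of uTOP-seq by the edgeR quasi-likelihood test over the windows of all autosomal genes. A fold change is relative to the typical gene locus, since the assays label different sites. Of the 2054 miRNA loci, 1747 had at least 10 reads in the 5 libraries and were tested. Background was high, because the maps differ at most genes: 64.8% of all 46789 gene loci tested were called at an adjusted p of 0.05, 32.4% with more 5hmC and 32.4% with more uCG. Among the miRNA loci 955 were called, 54.7%, of which 569 had more 5hmC reads, 32.6% of those tested, and 386 had more uCG reads, 22.1%. The share with more 5hmC was therefore near the background, and the share with more uCG was below it. Calls depend on reads and hence on window length, and in a fit of the miRNA and other small RNA loci alone, 49.3% of the miRNA loci were called against 39.0% of all loci in that fit. Among 2760 other small RNA loci tested, which are windows of like length around snRNA, snoRNA, scaRNA, misc_RNA and rRNA genes, 36.2% were called, 14.9% with more 5hmC and 21.3% with more uCG. These windows are alike in length, not in reads. Over all 3620 of them the median was 10 CGs, with 1.27 5hmC reads per CG at 500 ng. In miRNA windows these values were 13 and 1.97, so that a miRNA locus is also called more easily. Among protein-coding genes, whose windows are far longer, 79.1% were called, 35.5% with more 5hmC and 43.6% with more uCG. The median log2 fold change was 0.21 over the miRNA loci, -0.05 over all gene loci and -0.35 over the other small RNA loci. Scaling by library totals in place of TMM lowered the median of all gene loci to -0.27 and that of the miRNA loci to -0.01, so that their distance changed little.

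In the same test, the 9 members of the Mir290 to Mir295 cluster were all called with more uCG reads. Their log2 fold changes lay between -4.17 at Mir290a (SE 0.26) and -3.48 at Mir292 (SE 0.21), and the largest edgeR adjusted p was 8.85e-07. In the Mir302 cluster, Mir302b had a log2 fold change of -2.32 (SE 0.42, adjusted p = 3.19e-06) and Mir302c of -1.87 (SE 0.42, adjusted p = 0.000111), both with more uCG. Mir302a was called in the same direction with an adjusted p of 0.00243. Mir367, at the other end, was called with more 5hmC at a log2 fold change of 1.64 (SE 0.35, adjusted p = 6.74e-05). Mir302d, next to it, was at 0.52 (SE 0.32, adjusted p = 0.145). Fold changes along the Mir302 cluster thus followed the order of its genes, whose windows overlap.

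Over all miRNA loci, relative 5hmC coverage at 500 ng was 1.26 ± 0.0240 and relative uCG coverage was 1.53 ± 0.0119 (SD, n = 2 and 3). Both exceeded the values of the 3620 other small RNA genes, which were 0.811 ± 0.00680 and 1.11 ± 0.00680. For the whole span of the 20807 protein-coding genes they were 1.20 ± 0.00368 and 1.21 ± 0.000197. The excess over the other small RNA genes lay mostly in the 1084 miRNA genes whose name starts with Mir, at 1.61 ± 0.0272 and 1.82 ± 0.00710. The 970 miRNA genes with other names had 0.844 ± 0.0187 and 1.18 ± 0.0182, close to the other small RNA genes. Of the CGs in miRNA windows, 26.6% were 5hmCGs and 24.4% had uCG reads in all 3 libraries, against 23.4% and 14.6% of all autosomal CGs. With 2 replicates against 2, an exact permutation test cannot give a p below 0.33, so these levels are set only against the spread of the libraries.

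Intragenic miRNA loci had more 5hmC than intergenic ones. Relative 5hmC coverage was 1.42 and 1.39 in the 500-ng replicates for intragenic loci, and 1.01 and 0.965 for intergenic loci. The ratio was 1.43, and the replicates of the classes did not come near each other. Counted for each replicate on its own, the intragenic loci were higher on 14 of 19 autosomes. For uCG the classes had 1.65 ± 0.00458 and 1.32 ± 0.0275 (SD, n = 3), and the intragenic loci were higher on 16 or 17 of 19 autosomes. Among the 1084 genes whose name starts with Mir the uCG difference was lost, with a ratio of 1.004, whereas that of 5hmC was 1.47. The percentage of 5hmCGs was 28.7% in intragenic and 22.9% in intergenic windows.

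Within the intragenic loci, position relative to the host gene moved with 5hmC. Loci on the strand of the host had 1.61 ± 0.0301, and loci on the opposite strand had 0.887 ± 0.000856 (SD, n = 2). Loci in introns had 1.79 ± 0.0203, and loci overlapping an exon of a coding transcript had 0.896 ± 0.0226. Loci on the opposite strand and loci overlapping such an exon thus lay below the intergenic loci, at 0.986 ± 0.0294. For uCG the corresponding values were 1.70 and 1.54 by strand, and 1.57 and 1.74 by intron and exon, so that exonic loci were lower in 5hmC but not in uCG. Intergenic loci inside a long noncoding gene, 169 in number, had 1.12 ± 0.0179 for 5hmC, and the other 670 had 0.951 ± 0.0326.

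Distance from the start of a protein-coding transcript separated the marks. The 350 loci whose window lies within 2 kb of such a start had 0.655 ± 0.00938 for 5hmC and 1.92 ± 0.0177 for uCG. The 1704 loci farther away had 1.66 ± 0.0341 for 5hmC and 1.26 ± 0.00744 for uCG (SD, n = 2 and 3). At this distance, intragenic loci had 2.10 and intergenic loci 1.16 for 5hmC, and their uCG coverage was 1.32 and 1.20. In the edgeR test, 181 of the 340 loci tested near a start were called with more uCG and 89 with more 5hmC, and of the 1407 tested farther away, 480 were called with more 5hmC and 205 with more uCG. These shares are to be read against 32.4% of all gene loci in each direction.

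**Figure D2:**
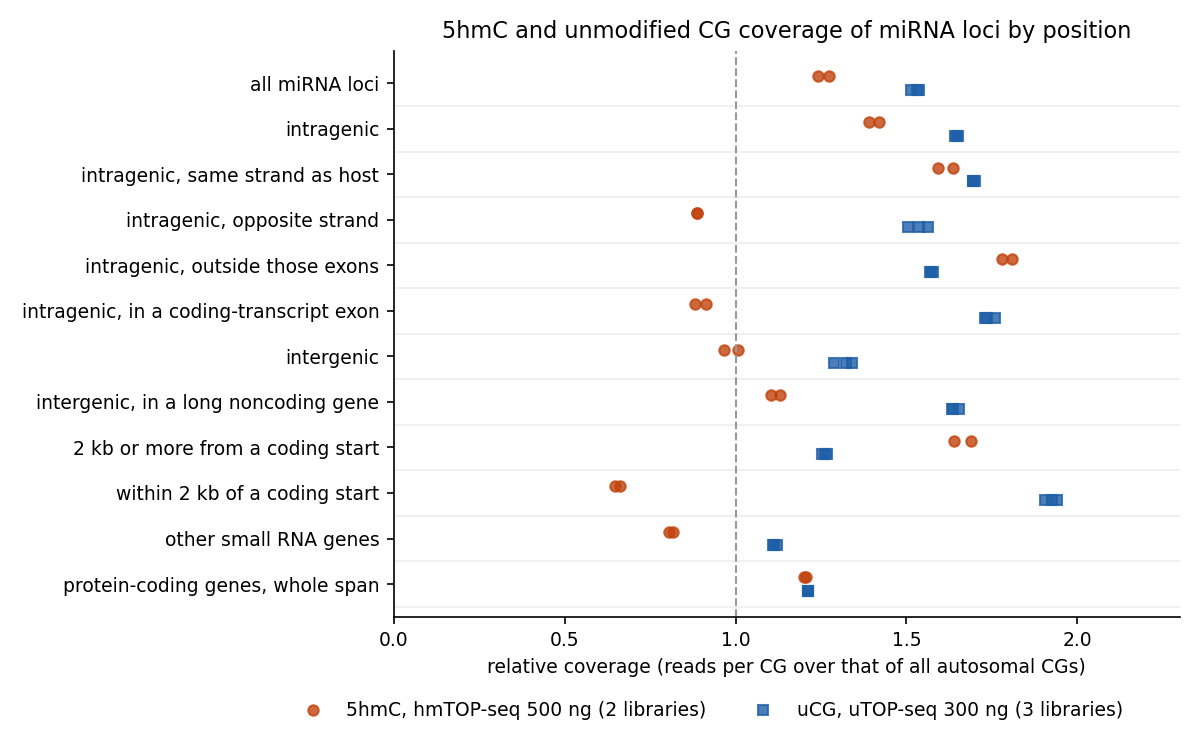
Relative coverage (reads per CG over that of all autosomal CGs, dashed line at 1) of miRNA loci by position, with other small RNA genes and protein-coding genes; circles are the 2 hmTOP-seq libraries at 500 ng and squares the 3 uTOP-seq libraries. Taken as a whole, intragenic loci stand to the right of intergenic loci in both marks. Intragenic loci on the opposite strand or in a coding-transcript exon stand to the left of intergenic loci in 5hmC. Loci within 2 kb of a coding start have the lowest 5hmC and the highest uCG coverage.

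The number of CGs in a window moved with both marks, and differently. Relative 5hmC coverage was 0.333 in windows of up to 4 CGs, 0.718 in those of 5 to 9, 1.54 in those of 10 to 19 and 2.41 in those of 20 to 49, and it was 0.241 in the 157 windows of 50 CGs or more. The SD between replicates was at most 0.0650. Relative uCG coverage was 0.743, 0.814, 1.09, 1.72 and 1.88 in the same classes. In windows of 20 to 49 CGs, intragenic loci had 2.81 ± 0.0779 and intergenic loci 1.68 ± 0.0415 for 5hmC, while in windows of 50 CGs or more they had 0.221 ± 0.00232 and 0.286 ± 0.0127 (SD, n = 2). In the edgeR test, 146 of the 153 CG-richest loci tested were called with more uCG and 2 with more 5hmC. Of the 435 loci with 20 to 49 CGs that were tested, 277 were called with more 5hmC and 72 with more uCG. These are 95.4% toward uCG in the former class and 63.7% toward 5hmC in the latter, against 32.4% of all gene loci in each direction. A window with more CGs also holds more reads, so that a difference of a given size is called more easily in it.

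**Figure D3:**
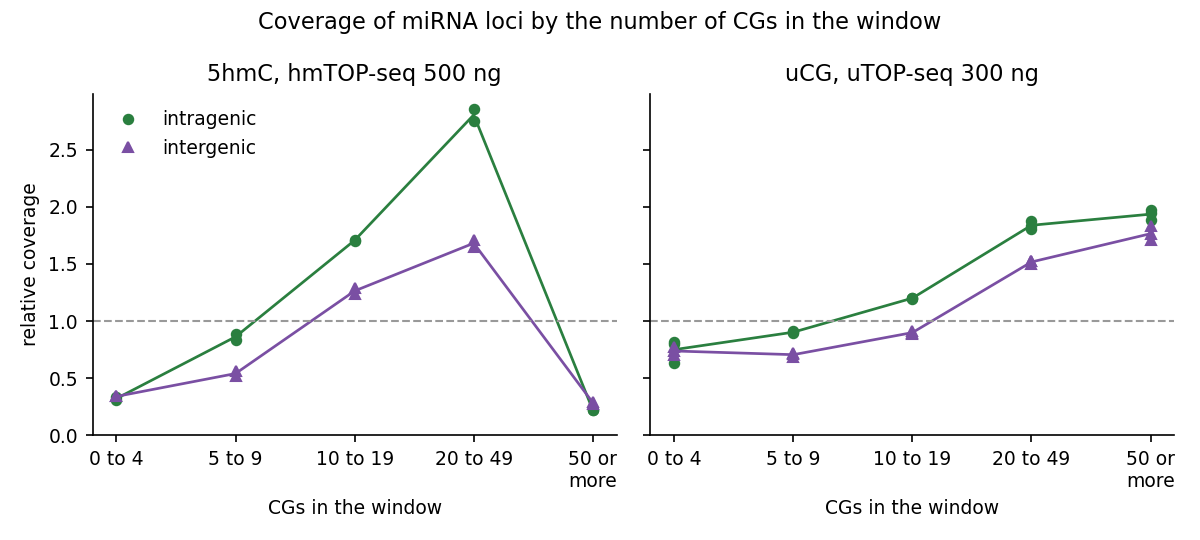
Relative coverage of miRNA loci by the number of CGs in the window for 5hmC (left panel, 2 libraries at 500 ng) and uCG (right panel, 3 libraries); points are libraries, lines join their means, and the dashed line is the autosomal level. 5hmC rises to 2.81 in intragenic windows of 20 to 49 CGs and drops to 0.221 in those of 50 CGs or more, whereas uCG rises with each class in intragenic windows and, in intergenic windows, from 5 CGs upward.

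Single loci were compared among the 1843 with at least 5 CGs in the window. The median relative 5hmC coverage was 0.732, with a range up to 10.6, and 152 of these loci had no read in either 500-ng replicate. The median was 0.924 over 1131 intragenic and 0.608 over 712 intergenic loci. Coverage was above the autosomal level in both 500-ng replicates at 722 loci and below it in both at 972. Taking all libraries together, 377 loci were above the autosomal level in both marks, 527 were below it in both, 103 were above it in 5hmC only and 203 in uCG only. At the other 633 loci, replicates lay on different sides in at least 1 mark. Across these loci, Spearman's rho between the marks was 0.503, as a description over points that share libraries and base composition.

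Pooled over all loci, the hairpin itself was not richer in 5hmC than its flanks. Over the 4207 CGs inside hairpin genes relative 5hmC coverage was 1.11 ± 0.00883, and over the 32975 CGs of the flanks it was 1.28 ± 0.0260 (SD, n = 2). For uCG the values were 1.14 ± 0.0391 and 1.58 ± 0.0137 (SD, n = 3). In intergenic loci the 5hmC of hairpins and flanks, 1.03 ± 0.0269 and 0.980 ± 0.0298 (SD, n = 2), were close to each other. For intragenic loci without Sfmbt2, 5hmC was also taken in 200-bp bins, which mix hairpin and flank CGs. It was 1.46 and 1.63 before and after the hairpin center, and 1.29 and 1.46 in the next bins outward. In the outermost bins, up to 3000 bp away, it was 2.01 and 1.92. Compared with the rest of the host gene, outside all miRNA windows, 391 of 1110 intragenic loci had more 5hmC per CG in both 500-ng replicates and 591 had less. The median was 0.960 at these loci and 1.16 in their host genes. Without the 118 loci inside Sfmbt2, described below, 391 of 992 were higher and 473 lower, with medians of 1.22 and 1.33. Against the 10 kb on both sides, 245 of 712 intergenic loci were higher and 342 were lower.

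Of all 1215 intragenic loci, 945 lay outside coding-transcript exons and 921 were on the strand of the host. The 8 intragenic windows richest in 5hmC lay, with 1 exception, in introns, and all were on that strand. These loci were chosen by this value, so it is given as a description, and the 50-ng replicates, which the choice did not use, are given beside it. Mir6948 at chr14:54643049-54643110 lies in an intron of Acin1, which encodes a factor of chromatin condensation in apoptosis. Its window lies 600 bp from a coding start. It had 541 and 520 reads on 32 CGs at 500 ng, a relative coverage of 10.7 and 10.5, and 13.1 and 9.29 at 50 ng. Its uCG coverage was 0.917 ± 0.108 (SD, n = 3), below the autosomal level in the mean, with single libraries at 0.910, 0.813 and 1.03. Mir6921 at chr11:60200538-60200617 lies in an intron of Srebf1, the gene of a transcription factor of lipid synthesis. It had 10.04 and 9.58 at 500 ng and 9.92 and 8.04 at 50 ng, with a uCG coverage of 3.31 ± 0.186.

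The other 6 of these intragenic windows had between 7.71 and 9.26 for 5hmC at 500 ng, and between 6.01 and 8.03 at 50 ng. They are Gm22518 in Shb, Mir7034 in Tmem120a, Mir6927 in Mllt6, Mir2139 in Klhdc7a, the window of Mir181d and Mir181c in Nanos3, and Mir6958 in Dennd6b. Mir2139 is the exception that overlaps an exon. Their uCG coverage was also above the autosomal level, from 1.97 at Mir6958 to 5.05 at Mir181d and Mir181c. Members of the Mir181 family are known for roles in lymphocytes, and Nanos3 is a gene of germ cells.

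Among intergenic loci, the window of mmu-mir-7686 and Mir202 at chr7:139957566-139957760 had the highest 5hmC coverage, 8.74 and 8.14 at 500 ng and 6.23 and 6.68 at 50 ng. It lies inside the long noncoding gene Gm16201, and Mir202 is known as a miRNA of the gonads. Mir3089, Mir1953, Mir196a-1, the window of Mir96 and Mir183, Mir7230, Mir6236 and Mir138-2 followed, with mean values from 7.45 down to 5.87 at 500 ng. At 50 ng these loci had between 4.26 and 7.61. Mir96 and Mir183 belong to a cluster known from sensory cells, and their replicates at 500 ng differed most, at 7.57 and 5.27. Whether Mir6236, at chr9:110281287-110281409, has near-identical copies elsewhere was not tested.

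The loci richest in uCG were mostly outside the richest 5hmC loci, with Mir181d and Mir181c in both groups. Mir6917 at chr10:128584437-128584497, in an intron of the receptor gene Erbb3, had 6.25 ± 1.55 for uCG and 1.43 ± 0.121 for 5hmC (SD, n = 3 and 2). Mir7229, Mir150, Mir7228 and Gm25035 had means of 5.54, 5.43, 5.17 and 5.11 for uCG. Their means for 5hmC were 0.265, 2.38, 1.80 and 0.172, on both sides of the autosomal level. Gm25035, in Zfp142 and within 2 kb of a coding start, had 4 and 3 5hmC reads at 500 ng. Mir150 is known as a miRNA of mature lymphocytes. Mir7229 and Mir7230 are neighbors on chromosome 5, at chr5:113324493-113324545 and chr5:113337590-113337645, and contrasted in 5hmC. Mir7229 had 14 and 15 5hmC reads on 35 CGs and 244, 248 and 176 uCG reads, while Mir7230 had 229 and 225 5hmC reads on 24 CGs and 109, 106 and 67 uCG reads. Their log2 fold changes of 5hmC against uCG were -4.15 and 1.05, given as a description, since Mir7229 and Mir7230 were named for their high uCG and 5hmC values.

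The largest fold changes toward uCG came from CG-rich windows at coding starts with no 5hmC read at 500 ng. Gm23634 in Stmn1, Mir423 in Nsrp1, Gm44349 in Elp5, Gm47314 in Eif3j1 and Gm27486 in Sbno1 have windows of 66 to 117 CGs that reach the start of a coding transcript. Mir423, at chr11:77078064-77078172 and known as a miRNA expressed in many tissues, had 0 and 0 5hmC reads at 500 ng and 251, 229 and 232 uCG reads. With 3 reads over the 500-ng replicates as the floor, uCG at Mir423 was at least 214.5-fold higher in share of reads, and at the other 4 loci at least 186.5-fold to 216-fold. The largest fold changes toward 5hmC came from loci without a uCG read. Gm27375 had 12 and 17 5hmC reads on 27 CGs, and with the same floor over the 3 uCG libraries its share was at least 10.7-fold higher. Gm25381, Gm44382, Mir344h-2 and Gm23881 followed with at least 8.48-fold, 6.27-fold, 4.06-fold and 3.69-fold. At Gm44382 and Mir344h-2 the 500-ng replicates were far apart, with 16 and 1 reads and with 10 and 1 reads. These loci were chosen by their fold change, which is given as a description.

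**Figure D4:**
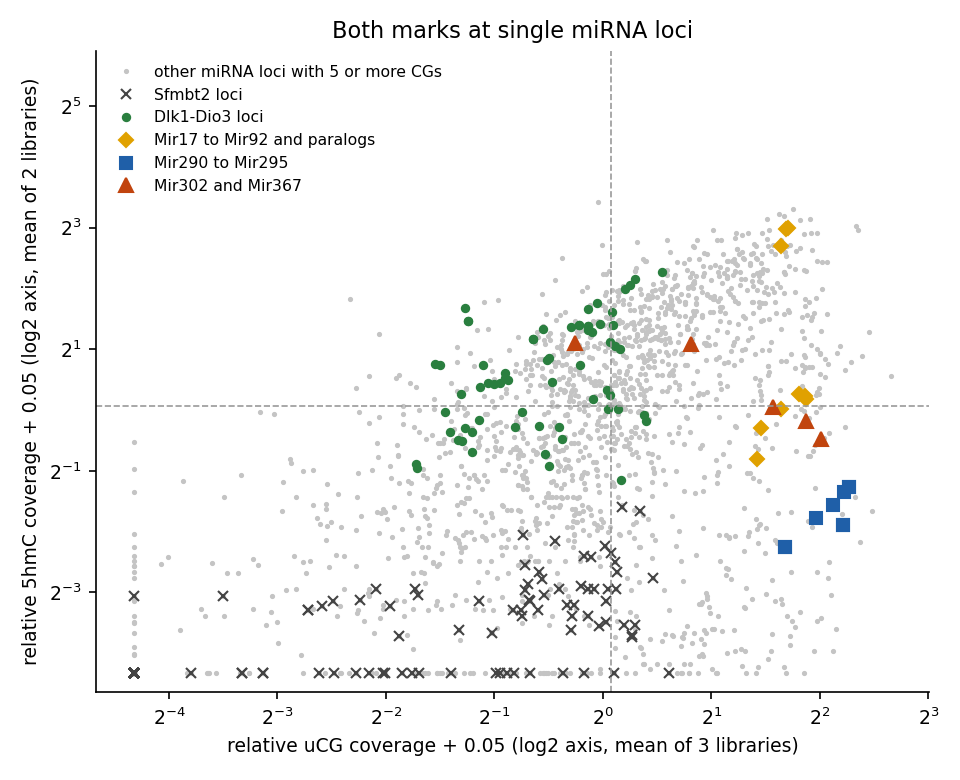
Mean relative 5hmC coverage at 500 ng (2 libraries) against mean relative uCG coverage (3 libraries) of miRNA loci with at least 5 CGs, each plus 0.05 on log2 axes; dashed lines mark the autosomal level. Loci inside Sfmbt2 lie at the bottom, 44 of the 66 Dlk1-Dio3 loci lie above the line in 5hmC and 54 do not exceed it in uCG, the Mir290 to Mir295 cluster at the lower right, and members of the Mir302 cluster extend from there toward more 5hmC.

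Known families and clusters were then compared. In the Mir17 to Mir92 cluster and its autosomal paralogs, which promote proliferation, the uCG level was high throughout and the 5hmC level differed between the clusters. The 9 members had uCG coverage from 2.62 to 3.61. The 6 members of the intergenic Mir17 to Mir92 cluster had 5hmC coverage from 0.524 at Mir92-1 to 1.15 at Mir19a, while Mir106b, Mir93 and Mir25, in an intron of the replication gene Mcm7, had 7.84, 7.91 and 6.43. In the edgeR test, all 6 of the former were called with more uCG, at log2 fold changes from -2.08 to -1.36, and all 3 of the latter with more 5hmC, from 1.28 to 1.52. These are 66.7% and 33.3% of the 9 members, against 32.4% of all gene loci in each direction. The windows of the 6 overlap one another, as do those of the 3. The 9 members together hold only 55 different CGs, so that their calls are not independent. Mir93 had a log2 fold change of 1.51 (SE 0.15, adjusted p = 3.25e-12) and Mir17 of -1.51 (SE 0.31, adjusted p = 3.08e-05).

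In the let-7 family, which promotes differentiation, 8 of 10 members were tested, of which 2 were called with more 5hmC and 3 with more uCG, near the background of 32.4% in each direction. Mirlet7e, in Spaca6, had the highest 5hmC coverage, 4.44 ± 0.0418 (SD, n = 2). Mirlet7i, with 142 CGs, had no 5hmC read at 500 ng and a uCG coverage of 0.671 ± 0.106 (SD, n = 3). Mirlet7a-2 had 0.0533 for 5hmC and 0.0571 for uCG and was too sparse to be tested. The family as a whole had 0.838 ± 0.0580 for 5hmC and 0.957 ± 0.0176 for uCG (SD, n = 2 and 3), and without Mirlet7i, which holds 142 of its 249 CGs, it had 1.95 ± 0.135 and 1.34 ± 0.101. The side of the autosomal level on which the pooled family lay thus depended on single members. Mirlet7e held 202 and 201 of the 313 and 339 5hmC reads of the family at 500 ng. Over the 8 members with at least 5 CGs, the median for 5hmC was 0.687, and 4 were above the autosomal level.

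Of the 15 neural miRNA genes, 6 had a mean 5hmC coverage above the autosomal level. Their median was 0.626, against 0.732 over all miRNA loci with at least 5 CGs. In the edgeR test, 10 of 14 tested were called with more uCG and 1 with more 5hmC, 71.4% and 7.14%, against 32.4% of all gene loci in each direction. Of the CG-richest miRNA windows, to which 10 of the 15 belong, 95.4% were called with more uCG. Mir124a-3, whose product is the most abundant miRNA of neurons, had a log2 fold change of -5.04 (SE 0.23, adjusted p = 7.26e-25), and Mir219c, of the Mir219 genes known from oligodendrocytes, of -4.87 (SE 0.27, adjusted p = 9.25e-22). Mir219c shares most of its window with Mir219a-1, which had -4.42. Mir124a-2, of the same family, was the one called with more 5hmC, at 0.79 (SE 0.24, adjusted p = 0.00413). Mir219b and Mir219a-2, which share a window on chromosome 2, had the highest 5hmC of the list, at 3.36 and 3.22, and uCG coverage of 3.67 and 3.58.

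Of the 9 muscle miRNA genes, 7 were tested, 4 were called with more 5hmC and 0 with more uCG, 57.1% and 0%, against 32.4% of all gene loci in each direction. The 4 called, Mir208a, Mir208b, Mir499 and Mir1a-1, have windows of 20 to 49 CGs. Of all miRNA loci tested in that class, 63.7% were called with more 5hmC, so these calls do not set the muscle genes apart. Mir208b, inside the myosin gene Myh7, had a log2 fold change of 3.78 (SE 0.41, adjusted p = 1.35e-11) and Mir208a, inside Myh6, of 2.78 (SE 0.35, adjusted p = 1.30e-09). Their uCG coverage was 0.190 ± 0.0370 and 0.343 ± 0.157 (SD, n = 3). Mir133b and Mir133a-1 had no 5hmC read at 500 ng and were too sparse to be tested.

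The Hox-cluster miRNA genes differed widely in 5hmC. Mir196a-2 in Hoxc5 and the intergenic Mir196a-1, with 13 CGs each, had 7.48 ± 0.514 and 6.52 ± 0.606 for 5hmC (SD, n = 2), while Mir615 in the same host, with 65 CGs, had 0.276 ± 0.0175. In the edgeR test, 3 of the 6 were called with more 5hmC and 2 with more uCG, counts too small to set against the 32.4% of all gene loci. In the Mir200 family, which maintains epithelial character, all 5 members were above the autosomal level for 5hmC in the mean, from 1.13 at Mir429 to 3.79 at Mir141, and Mir200a and Mir141 were called with more 5hmC. Of the Mir34 genes, which are targets of p53, Mir34a had 5.09 ± 0.355 for 5hmC and was called with more 5hmC, whereas Mir34b and Mir34c, at 1.22 and 1.28, were called with more uCG.

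In the imprinted Dlk1-Dio3 region on chromosome 12, 66 of 67 miRNA loci were tested, of which 47 were called with more 5hmC and 1 with more uCG, shares of 71.2% and 1.52%, against 32.4% of all gene loci in each direction. The median log2 fold change was 1.62. Windows of some neighboring loci overlap, and those of Mir3071 and Mir136 hold the same CGs, so that these calls are not independent. The 67 loci hold 885 different CGs. Together their windows had 1.54 ± 0.0291 for 5hmC and 0.734 ± 0.0473 for uCG (SD, n = 2 and 3), and the rest of the region between Dlk1 and Dio3 had 1.25 ± 0.0194 and 0.972 ± 0.0130. Mir665, Mir540, Mir3544 and Mir337, whose windows overlap, were highest, at 4.77, 4.41, 4.12 and 3.93. Mir1247, with 142 CGs, was the locus called with more uCG, at a log2 fold change of -1.21 (SE 0.18, adjusted p = 3.96e-08).

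The 119 loci inside Sfmbt2, a Polycomb-related gene whose intron holds a large miRNA cluster, were nearly free of 5hmC reads. Their windows had 0.0427 ± 0.00620 for 5hmC and 0.411 ± 0.0291 for uCG (SD, n = 2 and 3), against 0.701 ± 0.00373 and 0.974 ± 0.0290 in the rest of the gene. Of the 118 loci with at least 5 CGs, 116 had no 5hmCG. Only 60 of the loci had the 10 reads needed for the test, which 57 reached by uCG reads alone and 1 by 5hmC reads alone. Passing the filter therefore fixed the direction, and the calls are not given. In these windows, 62.5% of CGs had no read in any hmTOP-seq or uTOP-seq library, against 21.9% over all miRNA loci, and 37.1% lay in repeats, against 14.3%. The hairpins of this cluster are near-identical copies, the authors kept only reads with a mapping quality of at least 30, and the part of mappability in these values was not tested.

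**Figure D5:**
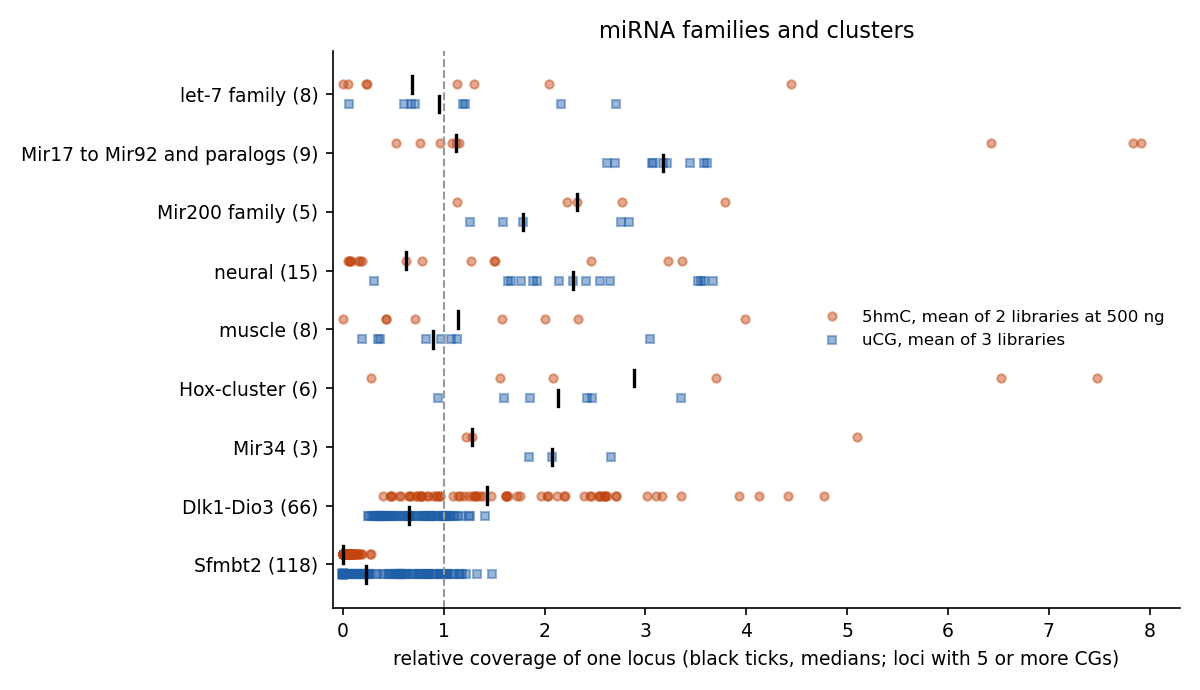
Relative coverage of single loci with at least 5 CGs (their number in brackets) in the families and clusters; circles are 5hmC (mean of 2 libraries at 500 ng), squares are uCG (mean of 3 libraries), black ticks are medians, and the dashed line is the autosomal level. Within their family, Mir106b, Mir93 and Mir25 stand apart in 5hmC at 6.43 to 7.91, and loci inside Sfmbt2 do not exceed 0.282.

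CGs inside mature miRNA sequences were also covered. Of the 2054 genes, 882 matched a RefSeq hairpin by symbol and position, with 1521 mature sequences, all identical to the reference. A CG was present in 533 of these and in the seed of 202. Over the 736 CGs inside mature sequences, relative 5hmC coverage was 1.54 ± 0.0266 and relative uCG coverage was 1.44 ± 0.0485 (SD, n = 2 and 3), and 34.4% were 5hmCGs. Whole windows of the genes whose name starts with Mir had 1.61 ± 0.0272 and 1.82 ± 0.00710, with 32.9% 5hmCGs. The mature sequences were thus not richer in 5hmC coverage than such windows. Over the 219 CGs inside seeds, 5hmC was 1.72 ± 0.145, and over the 517 outside them it was 1.46 ± 0.0993, with single replicates at 1.83 and 1.62 inside and 1.39 and 1.53 outside seeds. The CGs with most 5hmC reads at 500 ng lay in the following sequences, with that CG in capitals.
miR-6236: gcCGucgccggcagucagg
miR-7048-5p: CGgggcugagaggugaggaagc
miR-106b-3p: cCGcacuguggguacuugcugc
miR-25-3p: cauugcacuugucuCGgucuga
miR-7658-3p: accaccuuccucacccaCGcu
miR-1897-3p: ucaacucguucugucCGgugag
miR-7089-5p: cCGugggaccuacagacuccuggg
miR-326-5p: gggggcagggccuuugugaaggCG
miR-181d-3p: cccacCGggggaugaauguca
The CG of miR-7048-5p had 46 and 41 5hmC reads and 16, 1 and 2 uCG reads. The CG of miR-106b-3p, in its seed, had 26 and 40 5hmC reads and 8, 3 and 2 uCG reads, and that of miR-25-3p had 32 and 24 5hmC reads and 18, 10 and 2 uCG reads. Both lie in the intron of Mcm7. The CG of miR-181d-3p lies in the seed and had 18 and 21 5hmC reads and the most uCG reads of the group, 19, 16 and 7. The capitals of miR-6236 mark its CG with 44 and 43 5hmC reads, and its other CGs had 5 and 6, and 24 and 35. The CGs in capitals were chosen by their 5hmC reads at 500 ng, which are therefore given as a description. Single uCG libraries were often near 0 at these CGs.

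Whether the loci kept their 5hmC coverage at lower inputs was asked by comparing 50 and 5 ng with 500 ng. Over all miRNA loci, relative coverage was 1.19 ± 0.00443 at 50 ng and 1.14 ± 0.000894 at 5 ng, compared with 1.26 ± 0.0240 at 500 ng (SD, n = 2). The ratio of intragenic to intergenic loci was 1.39 and 1.25, compared with 1.43. Across loci with at least 5 CGs, Spearman's rho between the replicates fell from 0.933 at 500 ng to 0.812 and then 0.552 at the lower inputs, as a description over points that share depth and base composition. At 5 ng, 5hmCGs were 1.79% of the CGs in miRNA windows, compared with 12.4% at 50 ng and 26.6% at 500 ng, and over all autosomal CGs the percentages were 1.29%, 9.78% and 23.4%.

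By the edgeR test, no miRNA locus was called at 50 ng against 500 ng, of 1473 tested, and none at 5 ng, of 1389 tested. The background was also 0% of all 43446 and 42270 gene loci. At an unadjusted p of 0.05 in the edgeR test, 94 and 273 miRNA loci passed, 6.38% and 19.7% of those tested. The share of all gene loci at this threshold is not given here, so these counts do not set miRNA loci apart. DESeq2 called 0 and 26, or 0% and 1.87% of those tested, against 0.297% and 2.96% of all gene loci. The median log2 fold change of the miRNA loci was -0.06 at 50 ng and -0.35 at 5 ng, compared with -0.33 at 5 ng for the other small RNA loci. Both results rest on the spread of the low-input libraries. Without replicate 1 or 2 at 50 ng, when the spread comes from the 500-ng replicates and the lone library is assumed to vary like them, 112 and 151 loci were called, 8.03% and 10.8% of those tested, against 9.86% and 11.2% of all gene loci in the same fits. Without replicate 1 or 2 at 5 ng, 804 and 776 were called, 59.2% and 57.5%, against 58.0% and 55.9% of all gene loci, and without a 500-ng replicate, 0 were called in all 4 fits.

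At the clusters, low input gave few reads. The Mir290 to Mir295 cluster held 21 and 8 reads in the 50-ng replicates, against 10 and 127 in those of 5 ng. Its relative coverage at 5 ng was 0.198 and 2.45, a difference between replicates that came from 5 CGs with 10 to 59 reads in a single library. Without these CGs it was 0 and 0.0831. The Mir302 cluster held 25 and 51 reads in the 50-ng replicates, against 28 and 82 in those of 5 ng, for a relative coverage of 0.861 and 1.83, and of 1.49 and 4.26. No member of either cluster was called at either input, and the lowest edgeR adjusted p was 0.291.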

How the data were processed

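5hmC was mapped by hmTOP-seq and unmodified CGs by uTOP-seq in DNA of E14TG2a cells. The authors trimmed and filtered the Ion Proton reads, aligned them to mm10, kept those whose MAPQ was 30 or more, discarded duplicates and counted reads per CG site; the aligner is not given in the sources used here. The deposited values are read counts per CG for each library, not normalized and not pooled. Positions were increased by 1 base to fall on the C of the CG, and the counts of both strands were summed. Autosomal CGs were used, and 2 technical replicates of hmTOP-seq or 3 libraries of uTOP-seq formed each group.

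Reads were summed over the span of each GENCODE M21 miRNA gene with 500 bp on both sides, each CG once per set, and divided by the autosomal mean of the library. Values are means with the SD of the libraries. Tests were run in edgeR 4.0.16 (R 4.3.3; quasi-likelihood, TMM) on counts of all 51229 autosomal gene windows with at least 10 reads in total, with Benjamini-Hochberg adjustment at 0.05, and in DESeq2 1.42.0 as an alternative. The edgeR step was tested on simulated data. Other values were computed in Python 3.11.15 with numpy 2.4.6, pandas 2.3.3 and scipy 1.17.1.

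Named are the cluster members, the 8 intragenic and 8 intergenic windows of at least 5 CGs with the highest 5hmC and the 6 with the highest uCG coverage, the 5 largest fold changes in each direction, the mature sequences holding the 10 CGs with most 5hmC reads, and members of 9 lists of families and clusters. A fold against a group without reads is set against a floor of 3 reads over the group, which covers counting error only. The loci, lists and tests were chosen with earlier results of these data known. The alternatives varied the flank, CGs, input, strand, distance from coding starts, read filter, normalization, features tested, replicate number as a term, tool, and each library left out.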

Additional observations from a re-analysis of the deposited data

How the results depend on the processing

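Of 106 alternative values other than those leaving out a library, 46 stayed within the spread of the replicates or within 1.5 times the count, and 59 levels or ratios moved by more. Intragenic loci remained higher than intergenic loci in 5hmC under every alternative run. Without flanks, relative 5hmC coverage was 1.11 for all, 1.16 for intragenic and 1.03 for intergenic loci, with a ratio of 1.13, uCG coverage of all loci was 1.14, and 5hmC of the Mir302 cluster was 0.426. With flanks of 2000 bp the 5hmC values were 1.43, 1.61 and 1.08 with a ratio of 1.49, the uCG ratio was 1.28, and 5hmC of the Mir290 to Mir295 cluster was 0.438. Over CGs with a read in any library, 5hmC was 1.18 for all and 1.28 for intragenic loci with a ratio of 1.31, uCG was 1.43 with a ratio of 1.15, and the Mir290 to Mir295 cluster had 0.213 for 5hmC and 3.31 for uCG. Outside repeats, 5hmC was 1.16, 1.27 and 0.940 with a ratio of 1.35, uCG was 1.42 with a ratio of 1.13, and uCG of the Mir290 to Mir295 cluster was 3.67. As library medians over loci with at least 5 CGs, 5hmC was 0.741, 0.896 and 0.605 with a ratio of 1.48, and uCG was 0.931 with a ratio of 1.42. At 50 ng, 5hmC was 1.19, 1.32 and 0.952 with a ratio of 1.39, and 0.188 for the Mir290 to Mir295 cluster. At 5 ng it was 1.14 for all and 1.23 for intragenic loci with a ratio of 1.25, 1.32 for the Mir290 to Mir295 cluster and 2.87 for the Mir302 cluster. With only hosts on the same strand as intragenic, 5hmC was 1.61 and 0.954 with a ratio of 1.69, and the uCG ratio was 1.22. At least 2000 bp from coding starts, 5hmC was 2.10 and 1.16 with a ratio of 1.82, and the uCG ratio was 1.10. Added after seeing the data, genes with names starting with Mir gave 5hmC of 1.61, 1.77 and 1.20 with a ratio of 1.47, and uCG of 1.82 with a ratio of 1.004. Likewise, without Sfmbt2 the intragenic 5hmC was 1.43 with a ratio of 1.45, and uCG of all loci was 1.54. The causes of these shifts were not tested.

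Without each library in turn, 5hmC ranged from 1.24 to 1.27 for all, from 1.39 to 1.42 for intragenic and from 0.965 to 1.01 for intergenic loci, with a ratio of 1.41 to 1.44, and uCG from 1.52 to 1.53 with a ratio of 1.24 to 1.26. The Mir290 to Mir295 cluster ranged from 0.244 to 0.323 for 5hmC and from 4.12 to 4.68 for uCG, and the Mir302 cluster from 1.29 to 2.09 and from 1.70 to 2.35. Loci called in 5hmC against uCG ranged from 754 to 893 without a library, from 0 to 151 at 50 ng and from 0 to 804 at 5 ng against 500 ng, where the calls came from leaving out a replicate of the lower input, as described above.

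The 955 loci called in 5hmC against uCG became 918 by library totals, 854 in DESeq2, 949 without the read filter, 861 among like-sized loci and 1349 with flanks of 2000 bp. The shares of miRNA loci called were 52.5%, 48.9%, 48.3%, 49.3% and 67.8%, against 64.8%, 61.0%, 61.1%, 39.0% and 69.6% of all loci in the same fits, so that miRNA loci exceeded the background among like-sized loci alone. Those loci are alike in length, but miRNA windows hold more CGs and more reads per CG, which makes a call easier. With a replicate block the count was 857, and 0 at 50 ng and 0 at 5 ng. The replicate numbers did not pair the libraries, since deviations of same-numbered libraries from their group means, over 19602 loci, correlated between -0.0226 and 0.0369. DESeq2 called 26 loci at 5 ng, 11 higher and 15 lower, which is 1.87%, against 2.96% of all gene loci, and the cause was not tested. Depth limits loci with few CGs: 307 of 2054 miRNA loci had fewer than 10 reads in the 500-ng and uTOP-seq libraries together.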
